A study of Mus musculus with 30 samples.

Results

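The X-linked chromatin regulators examined here are Hcfc1, Ogt, Kdm5c, Phf8, Kdm6a, Phf6, Atrx and Rbbp7, 8 of the 55421 genes in the count table, matched to GENCODE M21 by their Ensembl identifiers. All 8 are protein coding, lie on the X chromosome of mm10 and passed the expression minimum, a mean TPM (transcript level scaled for gene length and library depth) of 5 in the XX Rnf12 +/- libraries, which 477 X-linked genes met. Bulk RNA-seq was available for 30 libraries of 17 female F1 hybrid mouse embryonic stem cell (mESC) lines, which carry 1 genome of 129/Sv (the 129 or Mus allele) and 1 of Cast/Ei (the Cast allele), so that reads over strain differences can be assigned to a copy. The lines were XX wild type (2 libraries), XX Rnf12 +/- (2), the X monosomies XCastO129 (2, Cast X only) and X129OCast (2, 129 X only), and 13 lines with a large heterozygous deletion on the 129 X (22). Every deletion line also carries the Rnf12 +/- mutation on its 129 allele, and a neomycin cassette remained at the deletion. There was 1 clone of each of deletions A, B, AB and C-G, and 2 clones of each of the other 9. Deletions AB, C-G and I-TEL were larger than designed, I-TEL and J came from a second Rnf12 +/- founder, and the XO lines were clones of the same treatment that had lost 1 X. Cells were grown with LIF and serum on feeders that were depleted by pre-plating.

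In female cells before X inactivation both X chromosomes are active, so a cell that loses 1 copy of an X-linked gene loses gene dose, and X-chromosome upregulation is the increase in output from the copy that remains. Chromatin regulators are often sensitive to dose because they work in stoichiometric complexes. The 8 genes act at several steps. HCFC1 is a scaffold of histone methyltransferase complexes and is cut and modified by OGT, the enzyme that attaches O-GlcNAc sugars to nuclear proteins. KDM5C removes methyl groups from lysine 4 of histone H3, PHF8 from lysine 9 and related residues, and KDM6A (UTX) from lysine 27. PHF6 is a PHD-finger protein of the nucleolus and nucleus, ATRX is a remodeller that deposits histone H3.3 with DAXX, and RBBP7 is a histone-binding subunit shared by deacetylase and Polycomb complexes. Kdm5c and Kdm6a are also known as genes that escape X inactivation in mouse.

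From one end of the chromosome to the other, the genes lie at chrX:18162575-18279936 (Kdm6a, plus strand), chrX:52912266-52956943 (Phf6, plus), chrX:73942792-73966357 (Hcfc1, minus), chrX:101640060-101684351 (Ogt, plus), chrX:105797615-105929403 (Atrx, minus), chrX:151520672-151633859 (Phf8, plus), chrX:152233020-152274535 (Kdm5c, plus) and chrX:162760402-162779092 (Rbbp7, plus). Deletion AB removes the 129 copy of Kdm6a, deletion D that of Phf6, deletion E that of Hcfc1 and deletion H that of Atrx. Deletion C-G removes Phf6, Hcfc1 and Ogt together. Deletion K removes Phf8 and Kdm5c, and deletion I-TEL removes Phf8, Kdm5c and Rbbp7. This gave 12 pairs of a gene and a line that deletes it.

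Sequences upstream of the transcription start were taken from the RefSeq promoter table (GRCm38.p6), which matched 7 of the 8 genes. Phf6 was not matched. Hcfc1 and Phf8 are shown because they share a short sequence but, as described further on, differed in their expression from 1 copy. Each sequence is the 250 bases before the start, on the gene's strand, and capitals mark AAGATGG, the core of a YY1-type motif, which 4.49% of the 32851 promoters in the table hold on either strand.
Hcfc1, chrX:73966358-73966607, minus strand: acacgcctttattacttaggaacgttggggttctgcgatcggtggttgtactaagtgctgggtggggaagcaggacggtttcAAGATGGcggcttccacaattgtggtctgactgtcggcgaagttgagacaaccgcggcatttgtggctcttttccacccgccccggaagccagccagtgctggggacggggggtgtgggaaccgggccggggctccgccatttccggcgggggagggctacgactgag
Phf8, chrX:151520422-151520671, plus strand: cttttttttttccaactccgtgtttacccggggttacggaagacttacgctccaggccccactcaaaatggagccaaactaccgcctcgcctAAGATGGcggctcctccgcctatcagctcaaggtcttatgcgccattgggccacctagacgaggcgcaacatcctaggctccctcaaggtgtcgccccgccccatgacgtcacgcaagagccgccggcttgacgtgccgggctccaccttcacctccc
Both windows hold 19 CpG dinucleotides, with a GC content of 61.2% for Hcfc1 and 60.0% for Phf8. The windows of the other matched genes did not hold AAGATGG. A core of the ZNF143 (Zfp143) motif, with which HCFC1 is associated, is ACTACAA, and it was in 2.81% of the promoters and in no window of a matched member. CCGGAAGT (ETS) was likewise absent from these windows, and CACGTG (E-box) was present once, in Kdm6a. A match or its absence describes these letters in this window only.

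The libraries came in 3 sets by name. The set of deletion E and the XX lines had 20375194 to 21181405 counts per library, the other 12 deletion lines 8816184 to 10680026, and the XO lines, which were sequenced as single instead of paired reads, 14998265 to 16494893. Any difference between XO and XX cells therefore cannot be told apart from the difference in set and read type. The XO lines had no XX library in their own set and were compared with XX Rnf12 +/-. To stay within a set, deletion E was compared with the XX Rnf12 +/- libraries of its own set. Each other deletion was compared with those lines of its set whose deletion does not overlap it. I-TEL and J overlap, so each was compared only with lines of the first founder. Their changes therefore cannot be told apart from a difference between founders. Nothing in the labels says that the replicates of the XX and XO groups were separate cultures, although the study calls replicates of the XX, XCastO129 and deletion samples independent clones. Where they were not, p-values measure only the spread between libraries. Rnf12, the gene mutated in these lines, was at 211 and 193 TPM in XX wild type, 77.6 and 79.7 TPM in XX Rnf12 +/-, 71.2 and 77.8 TPM in XCastO129 and 3.53 TPM in both X129OCast libraries, and from 50.4 to 144 TPM in the deletion lines. Since the mutation lies on the 129 allele, X129OCast differs from the other lines in Rnf12 as well as in the X that it keeps, and for every X129OCast result these cannot be told apart. Deletion C stood apart in its set, with 41.3% of the 11703 tested genes called against the other lines. The 8 pluripotency markers (Pou5f1, Nanog and others) were expressed in every library, with summed TPM of 8667 to 14994, against 68.5 to 330 for 8 fibroblast markers and 11.0 to 28.5 for 6 primitive endoderm markers, none of which was at 0 in any library. In these bulk samples, fewer cells of a type and less RNA per cell cannot be told apart.

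With 1 copy, Hcfc1 stood at 94.0% to 129% of the median level with both copies in the lines that lost a copy, whereas the other 7 genes stood at 37.7% to 71.3% of theirs. In XCastO129, 7 of 8 genes had lower total counts and none was higher, beside 22.6% lower and 20.4% higher among all genes tested. In X129OCast, 7 of 8 were lower (29.2% of all genes) and 1, Hcfc1, was higher (25.3%). Of the 12 gene and deletion pairs, 9 were lower and none was higher, and the share of all genes called lower in these 7 lines was 0.504% in E, 0.581% in K, 1.90% in C-G, 2.25% in H, 2.97% in AB, 8.05% in D and 10.4% in I-TEL.

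**Figure D1:**
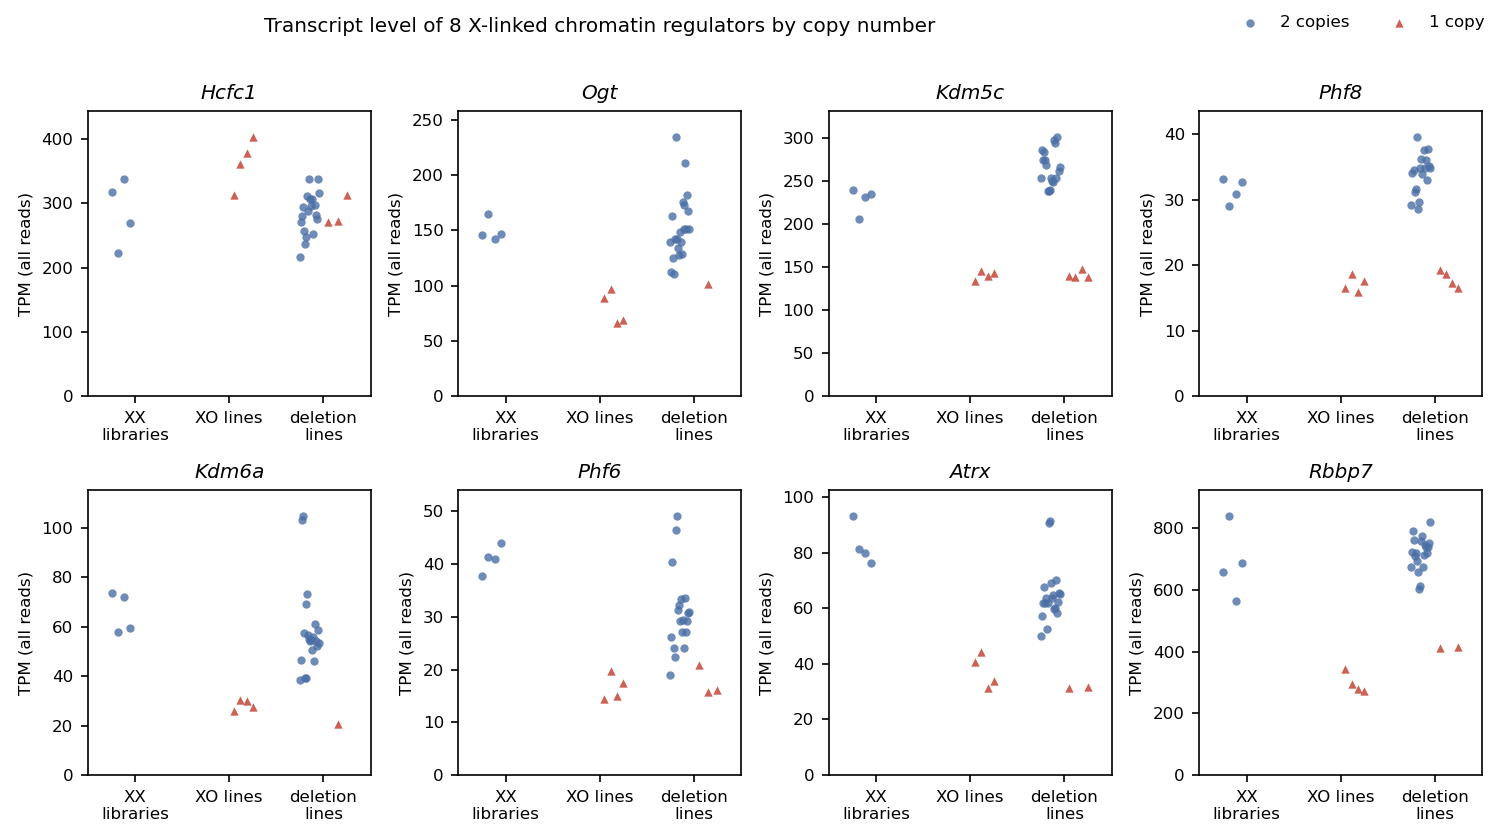
Transcript level (TPM, y axis from 0) of each gene in every library, grouped as XX libraries, XO lines and deletion lines. Blue circles are libraries with 2 copies of the gene and red triangles libraries with 1 copy. The 1-copy libraries of Hcfc1 (271 to 403 TPM) lie within or above the range with 2 copies (216 to 338 TPM), and those of the other genes lie below, except Phf6 in deletion C-G (20.8 TPM) and in 1 XCastO129 library (19.8 TPM).

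How much the remaining copy makes was asked next. Counts were therefore divided by the number of copies in each line, so that on the log2 scale used here a change of 0 means that 1 copy makes what 1 of the 2 copies did, and a change of 1 means that it makes as much as both. Of the 8 genes, 5 were higher per copy in XCastO129 and none was lower, where 21.0% of all genes tested were higher and 20.4% lower. In X129OCast 3 were higher and none lower, against 26.0% and 27.5%. Of the 12 deletion pairs 3 were higher and none lower: Hcfc1 in deletions E and C-G, and Phf6 in C-G. Among all genes tested, 0.205% were higher per copy and 0.0684% lower in E, and 1.10% and 0.598% in C-G. In the lines without a call for the genes they delete, these shares were 0.880% and 0.214% in K, 2.33% and 2.38% in AB, 3.23% and 2.02% in H, 7.37% and 8.02% in D, and 12.5% and 9.69% in I-TEL. The median log2 change per copy of the 8 genes was 0.25 in XCastO129 and 0.01 in X129OCast, beside -0.13 and -0.21 for the 374 expressed protein-coding genes of the X. Changes in TPM run lower than these fitted changes in the XO lines, because the median autosomal gene fell by 0.12 (XCastO129) and 0.16 (X129OCast) on the log2(TPM + 1) scale, a shift that the normalisation on autosomal genes removes.

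**Figure D2:**
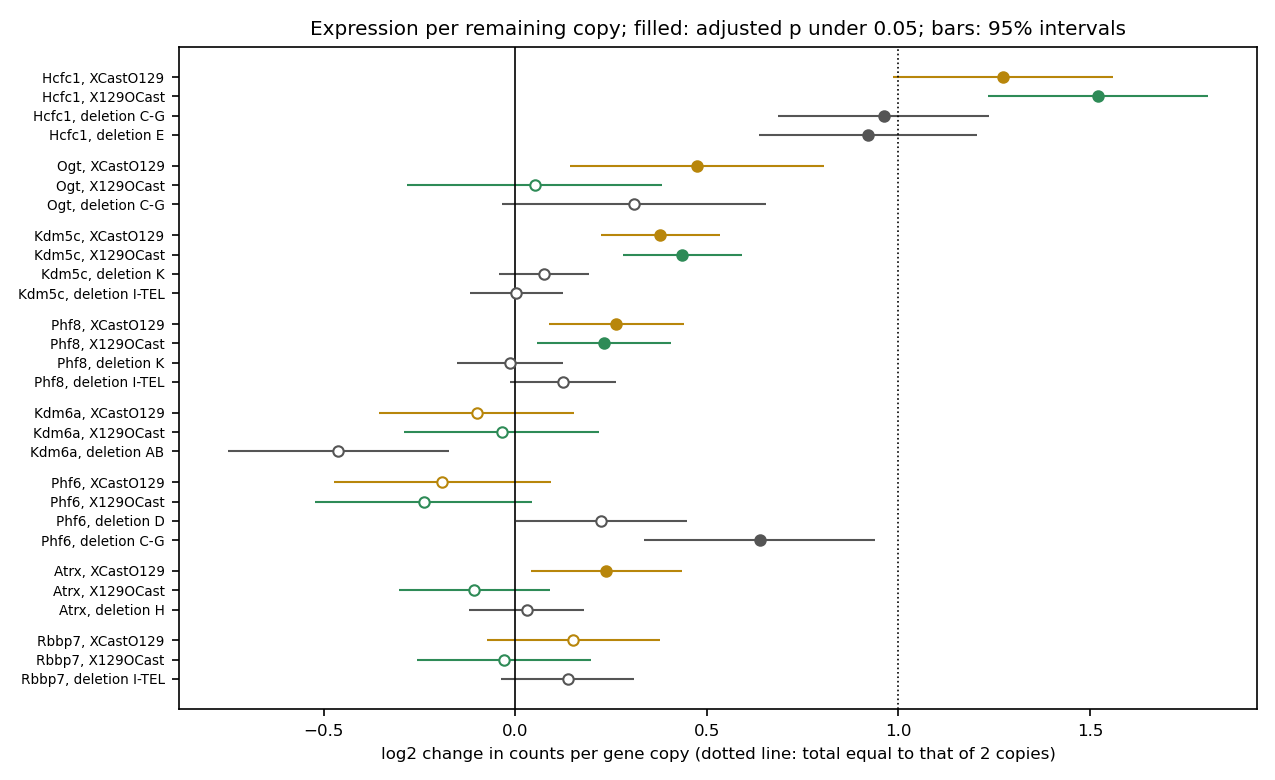
Log2 change in counts per gene copy (x axis) for each gene in XCastO129 (gold), X129OCast (green) and the deletions that cover it (grey), with 95% intervals. Filled points passed an adjusted p of 0.05 in edgeR. Hcfc1 lies beyond 1 in the XO lines (1.27 and 1.52) and at 0.92 and 0.96 in its deletions, and the other genes lie between -0.46 and 0.64.

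Hcfc1, the scaffold protein, had the largest change per copy of the 8 genes in both XO lines. It also had the largest among Phf6, Hcfc1 and Ogt, which deletion C-G removes. In deletion E, Hcfc1 was the only gene of the 8 with 1 copy. Its level was 338 and 269 TPM in the XX Rnf12 +/- libraries and 317 and 223 TPM in the XX wild type libraries. With 1 copy it was 314 and 361 TPM in XCastO129, 378 and 403 TPM in X129OCast, 273 and 312 TPM in deletion E and 271 TPM in the single clone of deletion C-G. In the set of C-G, the 19 libraries with both copies ran from 216 (deletion A) through a median of 289 to 338 TPM (deletion H). Thus both X129OCast libraries lay above every library with both copies, and the other 1-copy libraries fell among them or, for 1 XCastO129 library, above them. Per copy, Hcfc1 was higher by 1.27 ± 0.14 (log2, SE) in XCastO129 (edgeR quasi-likelihood test with Benjamini-Hochberg adjustment, adjusted p = 1.11e-06), by 1.52 ± 0.14 in X129OCast (adjusted p = 8.86e-08), by 0.92 ± 0.13 in deletion E (adjusted p = 0.00635) and by 0.96 ± 0.13 in C-G (adjusted p = 0.00089). Its total level was higher by 0.52 ± 0.13 in X129OCast (adjusted p = 0.00326). In XCastO129, deletion E and C-G the total changes of 0.27, -0.08 and -0.04 did not pass, with 95% intervals of -0.0086 to 0.56, -0.36 to 0.20 and -0.34 to 0.26. The deletion E call depended on 1 library: without XX Rnf12 +/- replicate 2 the change was 0.76 (adjusted p = 0.143) and without deletion E replicate 2 it was 0.84 (adjusted p = 0.133). Fitted on the 6 libraries of its own set, it was 0.91 with an adjusted p of 0.337. The total call in X129OCast was lost without XX Rnf12 +/- replicate 2 (0.36, adjusted p = 0.0619), and without replicate 1 the total in XCastO129 was called higher (0.45, adjusted p = 0.0294).

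The strain-specific counts showed the same gene from its remaining copy alone. In cells with both copies, the 129 allele gave 42.5% to 50.0% of the allele-assigned Hcfc1 counts. The share assigned to 129 was 0.468% to 2.13% in deletions E and C-G. It was 0.295% and 0.719% in XCastO129 and 99.9% in both X129OCast libraries, as the labels state. Cast counts, scaled to the autosomal Cast counts of the library (CPM), were 507 and 393 in XX Rnf12 +/-, and rose to 789 and 831 in deletion E, 714 in C-G and 1046 and 1321 in XCastO129. No library with both copies exceeded 507. The Cast counts were higher by 1.50 ± 0.15 in XCastO129 (edgeR, adjusted p = 4.22e-08), 0.86 ± 0.15 in deletion E (adjusted p = 0.0175) and 0.85 ± 0.15 in C-G (adjusted p = 0.0111). The 129 counts were higher by 1.82 ± 0.16 in X129OCast (adjusted p = 4.06e-09). Of genes tested on Cast counts, 14.0% were higher in XCastO129, 0.125% in deletion E and 0.0972% in C-G, and 18.3% were higher on 129 counts in X129OCast. The Cast call in deletion E was lost without XX Rnf12 +/- replicate 2 (0.69, adjusted p = 0.531) and without either deletion E library (0.90 and 0.82, adjusted p = 0.0832 and 0.230).

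**Figure D3:**
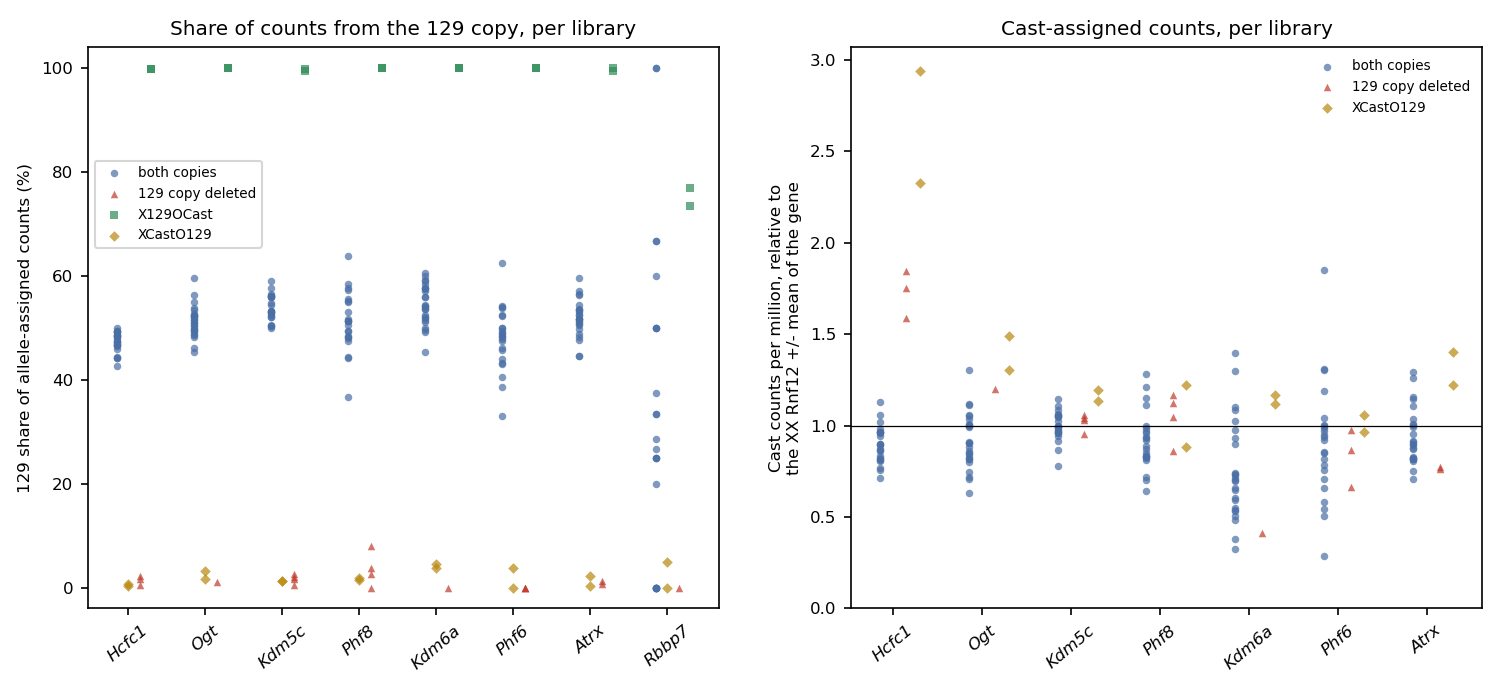
Left, share of allele-assigned counts from the 129 copy (%) for each gene, 1 point per library. Right, Cast-assigned counts scaled to the autosomal Cast counts of the library, divided by the XX Rnf12 +/- mean of the gene, for the 7 genes with enough such counts. With both copies the 129 share lies near 50% except for Rbbp7, and only for Hcfc1 do all libraries without the 129 copy lie above all those with it.

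Ogt, whose product cuts and modifies HCFC1, fell in all lines with 1 copy. Ogt was at 143 and 147 TPM in XX Rnf12 +/-, 88.6 and 96.8 TPM in XCastO129, 66.3 and 68.6 TPM in X129OCast and 102 TPM in deletion C-G, its only covering deletion. All 5 libraries with 1 copy lay below the 25 with both, of which the lowest, a deletion C clone, was at 110 TPM. Total counts were lower by 0.53 ± 0.16 in XCastO129 (edgeR, adjusted p = 0.0124), 0.95 ± 0.16 in X129OCast (adjusted p = 7.44e-05) and 0.69 ± 0.18 in C-G (adjusted p = 0.0381). Per copy, Ogt was higher by 0.48 ± 0.16 in XCastO129 (adjusted p = 0.0223), whereas the changes of 0.05 in X129OCast (95% interval -0.28 to 0.38) and 0.31 in C-G (-0.034 to 0.65) did not pass. The difference between the XO lines, 0.42 ± 0.16, did not pass either (adjusted p = 0.103). Cast counts rose by 0.58 ± 0.17 in XCastO129 (adjusted p = 0.0122). The per-copy call in XCastO129 was lost without XX Rnf12 +/- replicate 1 (0.46, adjusted p = 0.0832), XX Rnf12 +/- replicate 2 (0.49, adjusted p = 0.0637) or XCastO129 replicate 2 (0.41, adjusted p = 0.106), and the Cast call without the same libraries (adjusted p = 0.0599, 0.0631 and 0.0551). The total call in C-G was lost without deletion E replicate 1 or 2, deletion I-TEL replicate 2, deletion J replicate 2 or deletion K replicate 1 (adjusted p of 0.0507 to 0.0576), against XX Rnf12 +/- (-0.55, adjusted p = 0.0659) and with its own set alone in the fit (adjusted p = 0.0623), and the total call in XCastO129 without its replicate 1 (adjusted p = 0.0812).

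Kdm5c and Phf8, a pair of histone demethylases that are neighbours on the chromosome, fell together in the lines that delete both. Kdm5c, which acts on lysine 4, was at 148 and 138 TPM in deletion K and 140 and 139 TPM in I-TEL, against 238 to 302 TPM (median 268) in the 16 libraries of the set with both copies. Phf8 was at 17.4 and 16.5 TPM in K and 19.3 and 18.7 TPM in I-TEL, against 28.6 to 39.6 TPM (median 34.3). For both genes the ranges did not overlap, and the deleted lines averaged 49.4% to 55.4% of the median with both copies. Total counts of Kdm5c were lower by 0.92 ± 0.06 in K and 1.00 ± 0.06 in I-TEL (edgeR, adjusted p = 5.12e-08 and 1.28e-08), and those of Phf8 by 1.01 ± 0.07 and 0.87 ± 0.07 (adjusted p = 5.12e-08 and 1.30e-07). Per copy, no change passed. Kdm5c changed by 0.08 in K (95% interval -0.042 to 0.19) and 0.00 in I-TEL (-0.12 to 0.12), and Phf8 by -0.01 (-0.15 to 0.12) and 0.13 (-0.014 to 0.26). K and I-TEL did not differ from each other at a detectable level for either gene (Kdm5c 0.07, interval -0.084 to 0.23, and Phf8 -0.13, interval -0.31 to 0.056). These lines also come from different founders.

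In the XO lines both genes were called higher per copy. Kdm5c was at 231 and 235 TPM in XX Rnf12 +/-, 134 and 145 TPM in XCastO129 and 139 and 144 TPM in X129OCast, and Phf8 at 30.8 and 32.7 TPM, 16.5 and 18.6 TPM and 16.0 and 17.5 TPM. Per copy, Kdm5c was higher by 0.38 ± 0.07 in XCastO129 (edgeR, adjusted p = 0.000584) and 0.44 ± 0.07 in X129OCast (adjusted p = 9.48e-05), and Phf8 by 0.26 ± 0.08 (adjusted p = 0.0169) and 0.23 ± 0.08 (adjusted p = 0.0253). The Phf8 call was lost without XX Rnf12 +/- replicate 1 in both lines (0.23 and 0.20), without XCastO129 replicate 2 (0.18) and without X129OCast replicate 2 (0.16), and also without the TPM minimum or with the XO and XX Rnf12 +/- libraries alone in the fit. On allele-assigned counts, Kdm5c rose by 0.32 ± 0.12 on the Cast copy of XCastO129 (adjusted p = 0.0497) and 0.47 ± 0.13 on the 129 copy of X129OCast (adjusted p = 0.00505). The first was lost without any 1 of the XX Rnf12 +/- or XCastO129 libraries (adjusted p of 0.0538 to 0.210), and the second without X129OCast replicate 1 (0.42, adjusted p = 0.0524). For Phf8 the allelic changes of 0.17 and 0.03 did not pass. Against XX Rnf12 +/-, which belongs to another set, Kdm5c in deletion K was also called higher per copy, by 0.26 (adjusted p = 0.0270).

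Kdm6a, the lysine 27 demethylase, was lowest in the single clone of deletion AB, which has 1 copy, at 20.5 TPM. The 19 libraries of the set with both copies ran from 38.4 to 105 TPM (median 54.3). The XO lines gave 26.0 and 30.5 TPM (XCastO129) and 30.1 and 27.7 TPM (X129OCast), against 72.2 and 59.6 TPM in XX Rnf12 +/-. No library with 1 copy overlapped those with both. Total counts were lower by 1.46 ± 0.15 in AB (edgeR, adjusted p = 1.40e-05), 1.10 ± 0.12 in XCastO129 (adjusted p = 1.31e-06) and 1.03 ± 0.12 in X129OCast (adjusted p = 1.61e-06). Per copy it changed by -0.46 ± 0.14 in AB (adjusted p = 0.0590, unadjusted p = 0.00339), -0.10 ± 0.12 in XCastO129 and -0.03 ± 0.12 in X129OCast (adjusted p = 0.532 and 0.828). The AB value lay near the threshold and was called lower by DESeq2 (adjusted p = 0.0253) and with XX Rnf12 +/- as reference (-0.71, adjusted p = 0.00587), without the TPM minimum (adjusted p = 0.0135) and with its own set alone in the fit (adjusted p = 0.0300). It was also called lower without either XX Rnf12 +/- library (adjusted p = 0.0437 and 0.0438) and without deletion I-TEL replicate 1 (-0.48, adjusted p = 0.0324). The Cast counts behind AB were few, 17 in all, with 0 from the 129 copy.

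Phf6, the PHD-finger protein, passed the per-copy test in 1 of its 2 covering deletions. In deletion D it was at 15.7 and 16.1 TPM and in the single C-G clone at 20.8 TPM, against 18.9 to 40.4 TPM (median 29.2) in the 17 libraries of the set with both copies. The deletion D clones lay below all of these, and the C-G clone lay above the single deletion A clone (18.9 TPM), which keeps both copies. In XX Rnf12 +/- Phf6 was at 40.9 and 44.0 TPM, in XCastO129 at 14.4 and 19.8 TPM and in X129OCast at 14.9 and 17.4 TPM. Total counts were lower by 0.78 ± 0.11 in D (edgeR, adjusted p = 0.000436), 1.19 ± 0.14 in XCastO129 (adjusted p = 1.77e-06) and 1.24 ± 0.14 in X129OCast (adjusted p = 7.01e-07), but the change of -0.36 in C-G did not pass (adjusted p = 0.230). Per copy Phf6 was higher by 0.64 ± 0.14 in C-G (adjusted p = 0.0298), and changed by 0.22 ± 0.11 in D, -0.19 ± 0.13 in XCastO129 and -0.24 ± 0.14 in X129OCast, none of which passed. D and C-G did not differ at the threshold (-0.32, 95% interval -0.68 to 0.040). The call in C-G was lost without the library of deletion A, a reference line with low Phf6 (0.52, adjusted p = 0.0552), and without deletion J replicate 1 (0.63, adjusted p = 0.0505). The direction in the deletions rests on the reference. Against XX Rnf12 +/- the change was -0.07 in C-G (adjusted p = 0.811) and -0.39 in D (adjusted p = 0.0376). In XCastO129 it was called lower without replicate 2 (-0.43, adjusted p = 0.0273) and was 0.02 without replicate 1.

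Atrx, the H3.3-depositing remodeller, fell in every line with 1 copy. In deletion H it was at 31.3 and 31.7 TPM in the 2 clones, against 49.9 to 70.3 TPM (median 62.1) in the 18 libraries of the set with both copies. XCastO129 gave 40.7 and 44.1 TPM and X129OCast 31.3 and 33.9 TPM, against 79.9 and 76.4 TPM in XX Rnf12 +/-. Groups with 1 and with 2 copies did not overlap. Total counts were lower by 0.97 ± 0.08 in H (edgeR, adjusted p = 9.68e-07), 0.76 ± 0.09 in XCastO129 (adjusted p = 4.54e-06) and 1.11 ± 0.09 in X129OCast (adjusted p = 3.62e-08). Per copy the change in H was 0.03 (95% interval -0.12 to 0.18), which turned to -0.35 (adjusted p = 0.0191) against XX Rnf12 +/-. In XCastO129 Atrx was higher per copy by 0.24 ± 0.09 at an adjusted p of 0.0499, and this call was lost in 10 of the 11 other settings tried, among them DESeq2 (0.23, adjusted p = 0.0547) and the omission of any 1 XX Rnf12 +/- or XCastO129 library (0.18 to 0.29). In X129OCast it was at -0.11 (95% interval -0.30 to 0.091). Its Cast counts rose by 0.49 ± 0.14 in XCastO129 (adjusted p = 0.0120), a call lost without XX Rnf12 +/- replicate 1 or 2 or XCastO129 replicate 2 (adjusted p of 0.0563 to 0.0647).

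Rbbp7, the histone-binding subunit, was the most strongly expressed of the 8, at 657 to 820 TPM (median 731) in the 18 libraries of the set with both copies. In deletion I-TEL it was at 412 and 414 TPM, below all of these. Deletion J, from the same founder as I-TEL and with both copies of Rbbp7, gave 720 and 739 TPM. The XO lines gave 344 and 296 TPM (XCastO129) and 279 and 272 TPM (X129OCast), against 565 and 688 TPM in XX Rnf12 +/-. Total counts were lower by 0.86 ± 0.09 in I-TEL (edgeR, adjusted p = 2.16e-06), 0.85 ± 0.11 in XCastO129 (adjusted p = 6.44e-06) and 1.03 ± 0.11 in X129OCast (adjusted p = 4.39e-07), and per copy no change passed (0.14, 0.15 and -0.03). Against XX Rnf12 +/- the per-copy change in I-TEL was 0.33 (adjusted p = 0.0358). Rbbp7 shared 11.2% of its 50-base exonic windows with other genes, mainly the X-linked processed pseudogene Gm6382 and the neighbouring gene Txlng, against at most 0.615% for the other 7 genes. Its allele-assigned counts were under the minimum of 20 used here, and gave a 129 share of 76.9% and 73.3% in X129OCast, where no Cast copy exists. No allelic result is therefore given for Rbbp7.

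For the other 6 genes the allelic shares followed the labelled copies as for Hcfc1. With both copies the 129 share ran from 33.0% (Phf6) to 63.7% (Phf8), with X129OCast libraries at 99.3% or more and XCastO129 libraries at 4.58% or less. In the covering deletions it was 0% to 2.63%, except for Phf8 in I-TEL. There 2 of 52 and 4 of 50 allele-assigned counts (3.85% and 8.00%) were assigned to 129. Over the 11 gene and deletion pairs with enough Cast counts, 2 were higher and none was lower, both of them Hcfc1. The share of all genes higher on Cast counts in the other 5 lines was 0.139% in K, 0.389% in AB, 0.653% in H, 1.31% in D and 4.35% in I-TEL.

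The XO lines allowed the same gene to be read from either parental X. The lines also differ in Rnf12, of which X129OCast gave 160 and 144 counts and XCastO129 3055 and 3333. Of the 8 genes, only Atrx differed between the lines: it was higher in XCastO129 by 0.34 ± 0.09 (edgeR, adjusted p = 0.0300), where 4.80% of all genes tested were higher and 4.23% lower. This call was lost without XCastO129 replicate 2 (0.29, adjusted p = 0.146) or either X129OCast library (0.29 and 0.41, adjusted p = 0.211 and 0.0914). Hcfc1 was 0.25 lower in XCastO129 than in X129OCast, with a 95% interval of -0.53 to 0.035. The other 5 genes apart from Ogt differed by -0.07 to 0.18.

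The change per copy in a deletion was also compared with that in XCastO129, since both leave the Cast copy. It was lower for Kdm5c in K (-0.30 ± 0.09, edgeR, adjusted p = 0.0196) and I-TEL (-0.38 ± 0.09, adjusted p = 0.00430) and for Hcfc1 in E (-0.35 ± 0.13, adjusted p = 0.0486), and higher for Phf6 in C-G (0.83 ± 0.20, adjusted p = 0.00699). The other 8 of the 12 pairs did not pass, with Hcfc1 in C-G at -0.31 (95% interval -0.73 to 0.10). Of all genes tested, 19.5% were called in either direction for C-G, 21.4% for AB, 31.3% for K, 31.5% for D, 34.6% for H, 35.7% for E and 39.5% for I-TEL in these comparisons, in which set and read type also differ. Except for E, the references differ too: XX Rnf12 +/- for XCastO129, and lines of its own set for the deletion. Mean TPM per copy of Kdm5c was 143 in K, 140 in I-TEL and 139 in XCastO129. That of Phf6 was 17.1 in XCastO129, beside 20.8 in the C-G clone. The call for Kdm5c in K was lost without XX Rnf12 +/- replicate 1, XCastO129 replicate 2 or deletion K replicate 2 (adjusted p of 0.0541 to 0.0919). That for Hcfc1 in E was lost without XCastO129 replicate 2 or either deletion E library (adjusted p of 0.0862 to 0.250), and also without any 1 library of deletions C, D, H, I, J or K (adjusted p of 0.0520 to 0.0587), at an unchanged difference of -0.35.

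Some of these genes also differed between lines that keep both copies. In the 12 deletion lines sequenced together there were 85 pairs of a gene and a line that keeps both of its copies, and of these 3 were higher and 5 lower. All 8 lay in deletions A, AB, C and D, in which 7.97%, 4.72%, 41.3% and 15.4% of all genes were called in either direction. In the 8 lines without a call this share was 1.09% in K, 1.13% in B, 1.70% in C-G, 5.25% in H, 6.71% in F, 10.4% in I, 22.2% in I-TEL and 24.3% in J. Kdm6a was at 103 and 105 TPM in deletion C, above every other library, and higher by 1.10 ± 0.08 (edgeR, adjusted p = 4.97e-08). The 129 share of its allelic counts there was 49.5% (Wilson 95% interval 40.1% to 58.9%) and 45.3% (36.1% to 54.8%). Deletion C also had lower Phf6 (-0.33, adjusted p = 0.0188) and Ogt (-0.39, adjusted p = 0.0168). Kdm6a was lower in deletions A (-0.51, adjusted p = 0.0282) and D (-0.39, adjusted p = 0.0114), and Phf6 was lower in A (-0.63, adjusted p = 0.0201) and higher in AB (0.48, adjusted p = 0.0478). Ogt in deletion D was called higher (0.41, adjusted p = 0.0227), where its clones were at 143 and 235 TPM, and without replicate 2 the change was 0.04 (adjusted p = 0.872). Phf6 in AB turned to -0.09 (adjusted p = 0.739) against XX Rnf12 +/-. Its Cast counts in AB were higher by 1.21 ± 0.23 (adjusted p = 0.0105), at 115 CPM against 62.3 and 61.9 in XX Rnf12 +/-, and the 129 share was 33.0% (Wilson 95% interval 24.7% to 42.6%). The call for Kdm6a in D was lost without either D clone (adjusted p of 0.111 and 0.118), those for Phf6 and Ogt in deletion C without either C clone (adjusted p of 0.0536 to 0.211), and that for Phf6 in AB without any 1 library of deletions C, D, H, J or K, deletion F replicate 2 or deletion I replicate 1 (adjusted p of 0.0505 to 0.0677). Without both deletion C libraries, which otherwise enter the reference of the other lines, 2 of 77 pairs were called, both lower in deletion A: Phf6 (-0.68, adjusted p = 0.0167) and Hcfc1 (-0.51, adjusted p = 0.0454). Kdm6a was then at -0.42 in A and -0.29 in D (adjusted p = 0.0732 and 0.0679), Ogt at 0.36 in D (adjusted p = 0.0610) and Phf6 at 0.43 in AB (adjusted p = 0.0953). With all libraries, Hcfc1, Kdm5c, Phf8, Atrx and Rbbp7 gave no call with both copies. The reference of a line can hold lines with 1 copy of the gene, as C-G is for Hcfc1 in A. Against lines with both copies only, with all libraries in the fit, Hcfc1 in A was at -0.38 instead of -0.47. Fibroblast marker TPM, which varied between lines, summed to 226 and 235 in deletion D, 165 in A, 163 in AB and 103 and 126 in C, within 68.5 to 255 for the set, and their part in these changes was not tested. XX Rnf12 +/- and XX wild type did not differ at the threshold for any of the 8 genes (0 of 8 by edgeR, of which Rbbp7 had an unadjusted p of 0.0300 at -0.25), where 1.56% of all genes were higher and 1.60% lower. With the 4 XX libraries alone and the replicate number as a block, a fit added after seeing the data, Rbbp7 was called lower in XX Rnf12 +/- (-0.24, adjusted p = 0.0271).

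**Figure D4:**
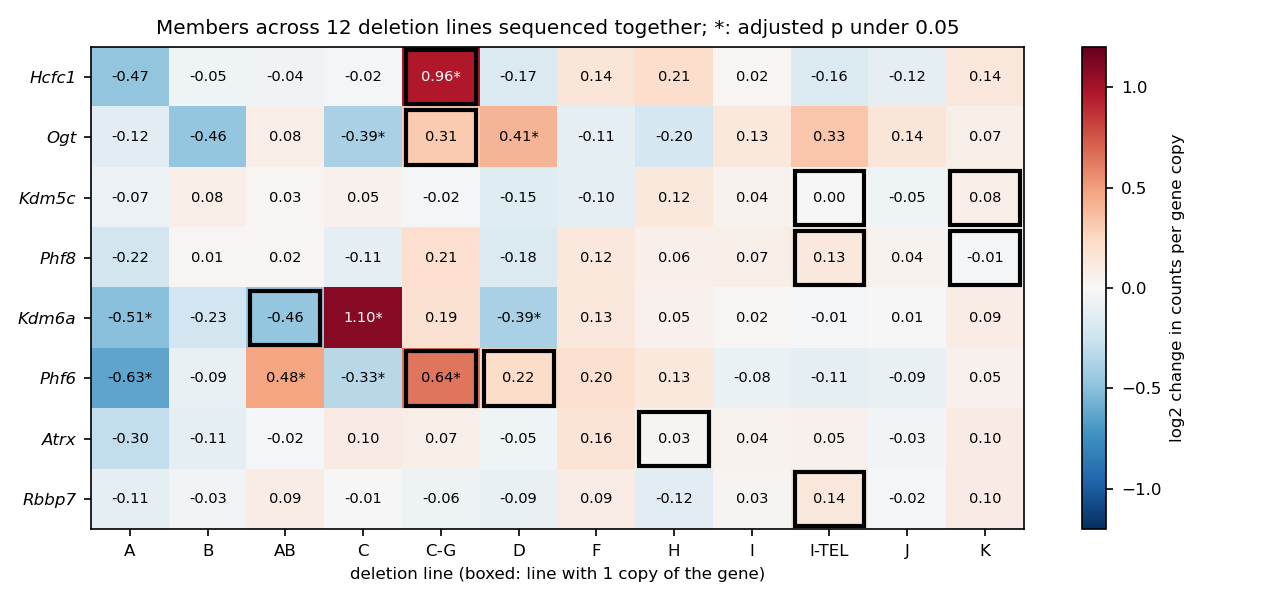
Log2 change in counts per gene copy (colour and number) of each gene in the 12 deletion lines sequenced together, each against the lines whose deletion does not overlap it. Boxes mark lines with 1 copy and asterisks an adjusted p under 0.05. Hcfc1 in C-G (0.96) and Kdm6a in deletion C (1.10, both copies present) are the highest values.

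Across the 20 libraries of the deletion set, the log2 levels of the 8 genes were compared with those of the other 11702 expressed genes. Kdm5c was most like Phf8 (Pearson r = 0.954) and Hsd17b10, and Phf8 most like Smc1a (r = 0.973) and Huwe1, which are its neighbours on the X. Atrx was most like Apool on the X (r = 0.913) and autosomal Pdcl2 (0.897), Phf6 had r = 0.824 with Hprt on the X, and Rbbp7 was most like its pseudogene Gm6382 (r = 0.947) and Pdha1 on the X (0.917). Hcfc1 was most like the autosomal genes Pprc1 (r = 0.896) and Ube3c, Ogt most like Gtf2a2 and Acyp2 (r = 0.776 and 0.757), and Kdm6a most like Zfand2a (r = 0.919). These values describe 20 libraries of which pairs are clones of 1 line, and the copy number of X-linked neighbours varies with them.

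Of 7 listed autosomal paralogs, 6 were tested (Kdm5a, Kdm5b, Kdm6b, Phf2, Kdm7a and Rbbp4). In XCastO129, where 21.0% of all genes were higher and 20.4% lower, none was higher and 1 was lower, Kdm6b by 0.39 ± 0.12 (edgeR, adjusted p = 0.0119), and in X129OCast 1 was higher and 2 were lower, beside 26.0% and 27.5% of all genes. Kdm6b, the other lysine 27 demethylase, was then higher by 0.53 ± 0.12 (adjusted p = 0.000876), while Phf2 fell by 0.97 ± 0.18 (adjusted p = 0.000250) and Kdm5b by 0.34 ± 0.09 (adjusted p = 0.00328). The XCastO129 call of Kdm6b was lost without XX Rnf12 +/- replicate 2 (-0.27, adjusted p = 0.134) or XCastO129 replicate 1 (-0.31, adjusted p = 0.103), and against both XX groups its change was 0.01. Rbbp4, a close relative of Rbbp7, was at 0.01 and -0.01. In the deletions that remove their X-linked relative, 1 of 10 paralog tests passed, Kdm7a in I-TEL (-0.44 ± 0.14, adjusted p = 0.0306), the line with 1 copy of its relative Phf8 and with 9.69% of all genes lower, and this was lost without either I-TEL library.

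Of 44 listed partners of HCFC1, OGT, KDM6A, ATRX and RBBP7, 43 were tested. No partner of Kdm5c, Phf8 or Phf6 was listed. In XCastO129 16 were higher and 5 lower (median log2 change 0.17), and in X129OCast 22 were higher and 7 lower (0.27). Over all genes, 21.0% were higher and 20.4% lower in XCastO129 (median -0.01) and 26.0% and 27.5% in X129OCast (-0.03), and the counts by protein that follow stand beside the same shares. Both comparisons share the XX Rnf12 +/- libraries. The partners and paralogs were chosen with earlier results of these data known, so their counts beside these shares are a description and not an independent test. Among the partners of Hcfc1, 5 of 13 were higher and 2 lower in XCastO129, and 6 were higher and 1 lower in X129OCast. Kmt2a, a lysine 4 methyltransferase, rose by 0.69 ± 0.13 (edgeR, adjusted p = 0.000323) and 0.91 ± 0.13 (adjusted p = 1.20e-05), while Wdr5, a core subunit of the same complexes, fell by 0.54 ± 0.10 in XCastO129 (adjusted p = 0.000322) and 0.49 ± 0.10 in X129OCast (adjusted p = 0.000504). Among the 8 partners of Ogt, 3 and 4 were higher and 1 and 2 lower. Kansl2, a subunit of the NSL acetyltransferase complex, rose by 0.80 ± 0.09 (adjusted p = 1.12e-06) and 0.99 ± 0.09 (adjusted p = 5.10e-08), and Tet2, a DNA dioxygenase bound by OGT, fell by 0.48 ± 0.16 (adjusted p = 0.0214) and 1.06 ± 0.16 (adjusted p = 2.70e-05). Tet2 in XCastO129 was lost without XX Rnf12 +/- replicate 2 (-0.43, adjusted p = 0.0931) or XCastO129 replicate 2 (-0.39, adjusted p = 0.129), and was at -0.08 against both XX groups.

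Among the 4 tested partners of Kdm6a, 1 was higher and none lower in XCastO129, and 3 were higher and 1 lower in X129OCast. Kmt2d, the methyltransferase that carries KDM6A, was higher by 1.09 ± 0.17 in X129OCast (edgeR, adjusted p = 3.83e-05) and 0.53 ± 0.17 in XCastO129 (adjusted p = 0.0185). Of the 4 partners of Atrx, 2 were higher in XCastO129 and 3 in X129OCast. H3f3a, which encodes histone H3.3, was at 0.75 ± 0.14 in both (adjusted p = 0.000415 and 0.000240). Of the 14 partners of Rbbp7, 5 and 6 were higher and 2 and 3 lower. Suz12, a Polycomb subunit, fell by 0.68 ± 0.11 (adjusted p = 6.46e-05) and 0.91 ± 0.11 (adjusted p = 1.73e-06), and Hat1, a histone acetyltransferase that binds RBBP7, fell by 0.84 ± 0.10 in X129OCast (adjusted p = 1.26e-06). Of 22 other X-linked chromatin genes, 21 were tested, of which 7 were higher and 1 lower per copy in XCastO129 and 11 higher and 2 lower in X129OCast, with medians of 0.06 and 0.33. Of all 477 expressed X-linked genes, 25.6% were higher in each line, and 27.0% and 36.7% were lower.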

How the data were processed

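RNA-seq of 30 mESC libraries was used. The deposited files hold, per gene and library, read counts in total, on the 129 allele and on the Cast allele. According to the study's methods, the authors trimmed reads (Trim Galore 0.6.7 in the submitters' processing notes), mapped them to an mm10 genome with strain differences masked (HISAT2 2.2.1), split them by allele with SNPsplit and counted exons of Ensembl 98 on the sense strand. The processing notes list HTSeq 0.12.4, the methods featureCounts. The share of reads that can be assigned to an allele (12.2% to 12.7% with paired reads, 21.9% to 22.0% in the XO libraries) differs with the read type, so allelic counts were scaled to autosomal counts of the same allele. This scaling acts on whole libraries and does not remove a shift with read type that is particular to a gene. Identifiers were matched to GENCODE M21 (55240 of 55421). Allelic counts above the total count were deposited 354 times.

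Counts were fitted in edgeR 4.0.16 (R 4.3.3, quasi-likelihood) over all 30 libraries at once, with TMM factors of autosomal genes and, for changes per copy, an offset that includes log copy number. The copy number followed the deletion borders given by the study. Genes with a mean TPM above 5 in XX Rnf12 +/- (11703), or with at least 20 counts of the allele in both XX Rnf12 +/- libraries (7203 for Cast, 7735 for 129), were tested, and p-values were adjusted by Benjamini-Hochberg over all of them at 0.05. Intervals are 95% intervals from the t distribution of the same fit, unadjusted. Wilson intervals of allelic shares cover counting error only. Total counts per library ran from 8816184 to 21181405. The fits were tested on simulated data. DESeq2 1.42.0 and other settings served as alternatives.

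The 8 genes, their paralogs and partners and the markers were chosen with earlier results of these data known. All 8 genes and their paralogs are named. Of the partners, the 3 largest called rises and falls in each XO line are named, with their values in the other line where of use, and for each of the 8 the 2 genes most alike in log2 CPM, of which 2 are not reported here. Oga appears under its M21 symbol, Mgea5. Promoters are from RefSeq.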

Additional observations from a re-analysis of the deposited data

Results flagged for a closer look

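The change per copy of 3 genes differed between a deletion and XCastO129, by a test of the difference itself in edgeR. For Kdm5c it was lower in deletion K by -0.30 (log2, adjusted p = 0.0196) and in deletion I-TEL by -0.38 (adjusted p = 0.00430). For Hcfc1 it was lower in deletion E by -0.35 (adjusted p = 0.0486), with the remaining copy higher in both. For Phf6 in deletion C-G, a single clone, it was higher by 0.83 (adjusted p = 0.00699). The XO libraries form a set of their own with single reads, so that these differences cannot be told apart from the difference between the library sets. Except for deletion E, the references differ as well: XX Rnf12 +/- for XCastO129, and lines of its own set for the deletion. Mean TPM per copy in XX Rnf12 +/- was 21.2 for Phf6 and 117 for Kdm5c. In the libraries of the deletion set with both copies the medians were 14.6 and 134. Atrx differed between the XO lines, which share set and read type but differ in Rnf12 (71.2 and 77.8 TPM against 3.53 TPM in both), and was higher in XCastO129 than in X129OCast by 0.34 (adjusted p = 0.0300), with TPM of 40.7 and 44.1 against 31.3 and 33.9. In cells with both copies the 129 copy gave 44.5% to 59.5% of the allelic Atrx counts.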

How the results depend on the processing

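With no TPM minimum, the members called per copy went from 5 to 3 in XCastO129, those that differed between the XO lines from 1 to 2, those that differed between a deletion and XCastO129 from 4 to 2, and calls in lines with both copies from 8 to 14. A fit of the XX Rnf12 +/- and XO libraries alone gave 3 calls in XCastO129. With XX Rnf12 +/- of another set as reference for the deletion lines, the calls per copy went from 3 to 7 (4 higher, 3 lower), those with both copies from 8 to 28 (5 higher, 23 lower) and paralog calls from 1 to 0. That comparison joins the sets, and the cause of the change was not tested. A reference that holds only lines with both copies of the gene, chosen after seeing the data, gave 9 calls with both copies. Without the deletion C libraries, also chosen after seeing the data, there were 3 calls per copy in the deletions, 9 in total counts, 2 on Cast counts, 3 differences from XCastO129 and 2 calls with both copies.

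Leaving out 1 library at a time (those of the reference lines A, B, C, F, I and J were added after seeing the data) gave, per copy, 2 to 4 calls in XCastO129, 2 to 3 in X129OCast and 2 to 4 in the deletions, in total counts 6 to 8, 7 to 8 and 8 to 9, on Cast counts 1 to 3 (XCastO129) and 1 to 2 (deletions), and on 129 counts 1 to 2. It gave 0 to 1 difference between the XO lines, 2 to 5 between deletions and XCastO129, and 5 to 9 calls with both copies. For paralogs and all listed partners it gave 16 to 22 calls in XCastO129 and 29 to 30 in X129OCast. For paralogs alone it gave 0 to 1 in the deletions. Over all alternatives, 1602 values of 85 results on the 8 genes were recomputed, of which 1462 kept direction and side of the threshold, 100 lost the call, 13 gained one and 27 changed direction.

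Directions changed for values near 0, with a change of reference, or on leaving out 1 library. The last group included values further from 0, such as Phf6 in XCastO129 at -0.19. Without the TPM minimum Ogt in X129OCast was at -0.0023, Phf8 in K at 0.016 and Rbbp4 in XCastO129 at -0.044. Kdm5c in I-TEL was at -0.0013 by DESeq2 and also at -0.0013 by median-of-ratios factors, and at -0.00018 by TMM factors of all genes, by which Rbbp4 in X129OCast was at 0.0021. Against XX Rnf12 +/-, Phf6 was at -0.39 in D, -0.068 in C-G and -0.093 in AB, Atrx in H at -0.35 and Phf8 in K at 0.059. Against both XX groups, Phf6 Cast counts in XCastO129 were at -0.027 and Kdm6b in XCastO129 at 0.0063. Leaving out 1 library turned Kdm6a (-0.24 to 0.050 in XCastO129, -0.17 to 0.12 in X129OCast), Phf6 in XCastO129 (-0.43 to 0.018), Rbbp7 in X129OCast (-0.16 to 0.11), Kdm5c in I-TEL (-0.020 to 0.026), Phf8 in K (-0.040 to 0.011), total Hcfc1 in E (-0.24 to 0.10), Phf8 Cast counts (-0.055 to 0.37), 129 counts of Kdm6a (-0.17 to 0.078), Phf8 (-0.11 to 0.18) and Phf6 (-0.0073 to 0.42), and the paralogs Kdm5a (-0.034 to 0.23), Kdm7a (-0.51 to 0.051) and Rbbp4 (-0.055 to 0.078 in XCastO129, -0.069 to 0.039 in X129OCast).

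The replicate numbers did not pair the samples across all lines, but the replicates of XX Rnf12 +/- and XX wild type deviated together. Over 78 pairs of lines the correlation of deviations ran from -0.366 to 0.702, with 19 above 0.1, and the highest was that of XX Rnf12 +/- with XX wild type. For that comparison 0 of 8 genes were called with and without the block over all libraries, and 1 (Rbbp7) with the block in the 4 XX libraries alone, chosen after seeing the data. With the replicate number as a block, the calls were 4, 3 and 3 per copy (XCastO129, X129OCast, deletions), 7, 8 and 9 in total counts, 3 and 2 on Cast counts and 2 on 129 counts, with 1 difference between the XO lines, 5 between deletions and XCastO129, and 9 calls with both copies. For paralogs and all listed partners the block gave 22 calls in XCastO129 and 32 in X129OCast. For paralogs alone it gave 1 in the deletions. Lines with 1 clone, 8816184 to 10680026 counts per library and few allelic counts (17 for Kdm6a in AB) limit what a change per copy can show.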
